A study of Mus musculus with 6 samples.

Results

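The unfolded protein and ATF4 stress response was followed here through 39 genes, named in a list by role and each read from the transcript cluster that carried its symbol and no other, the cluster with the highest mean where a gene had more than 1. All 39 were measured, among 19937 genes on the arrays. They comprised 14 chaperones and folding factors of the endoplasmic reticulum (ER), 4 genes of ER-associated degradation, 5 sensors and transcription factors, and 16 targets of the transcription factor ATF4, of which 7 act in amino acid and one-carbon metabolism and 9 are regulators.

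The RNA came from primary neurospheres, the floating colonies formed in culture by neural precursor cells, here of the hippocampus of adult male C57BL/6J mice of 8 to 12 weeks. The cultures grew in medium with EGF and bFGF and either 10 µM norepinephrine (N, n = 3 arrays) or 15 mM potassium chloride (K, n = 3 arrays) and were collected on day 14; the labels call them small neurospheres. The arrays were Affymetrix Mouse Gene 1.0 ST arrays, and their values are log2 values summarised by RMA. The labels name the arrays of a group as biological replicates and do not say whether each came from separate mice. No untreated neurospheres were among the arrays, so log2FC is N minus K throughout and does not tell which treatment moved a gene.

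Cells fold secreted and membrane proteins in the ER, and when unfolded proteins accumulate there the kinases IRE1 (encoded by Ern1) and PERK (encoded by Eif2ak3) and the membrane-bound factor ATF6 are activated. ATF6 and the spliced form of XBP1, which IRE1 produces, raise the transcription of chaperones and of genes that remove misfolded proteins. PERK phosphorylates eIF2 alpha, which slows translation in general while ATF4 protein is made, and other eIF2 alpha kinases reach the same point after amino acid shortage or viral RNA, so ATF4 targets can rise without the chaperones. In the developing cortex the response is known for a part in the choice of progenitors between direct and indirect neurogenesis. Splicing of Xbp1, cleavage of ATF6, phosphorylation of eIF2 alpha and translation of Atf4 are not read by these arrays, which measure the total RNA of each gene.

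The array medians lay between 6.30 and 6.40. K replicate 3 had the lowest mean correlation with its own group (r = 0.948 across clusters), and for K replicate 2 the mean correlation was 0.969 with the N arrays and 0.954 with its own group. Of the marker lists, the 5 astrocyte genes were all higher in mean with N, and their summed level on the log2 scale ranged from 12.01 to 12.22 with N and from 11.56 to 11.71 with K. Gfap, an intermediate filament protein of astrocytes, had a log2FC of 1.66 (SE 0.21, limma adjusted p = 0.0358), and its adjusted p exceeded 0.05 in 11 of the 15 alternative analyses, among them each fit that left out an array. The precursor genes ranged from 13.55 to 13.65 with N and from 13.38 to 13.59 with K, and 3 of the 6 were higher with N: Sox2, a precursor transcription factor, had a log2FC of 0.25 and Nes, an intermediate filament protein of precursors, one of -0.53 (adjusted p = 0.390). Vim, an intermediate filament protein of precursors and astrocytes that was chosen after its values were seen, had a log2FC of 0.44 (adjusted p = 0.267), with every N array above every K array. Summed levels of neuron genes (8.65 to 8.78 with N, 8.18 to 8.67 with K), microglial genes (8.25 to 8.35 and 8.26 to 8.55), endothelial genes (7.84 to 7.91 and 7.82 to 7.97) and choroid plexus genes (7.75 to 8.31 and 7.81 to 8.72) overlapped between the groups. The same held for Dcx, Cx3cr1 and Cldn5, with a log2FC of -0.07, -0.18 and -0.02. Of the other neuron genes, Snap25 and Tubb3, also chosen after their values were seen, had a log2FC of 0.81 and 0.47 (adjusted p = 0.291 and 0.471) and lay higher on every N array than on every K array. Only 1 of the 5 neuron, 1 of the 5 microglial and 0 of the 4 endothelial genes had a mean above the median of all clusters. Their sums may thus rest on dim signal, and do not tell whether these cells were present. The 4 oligodendrocyte lineage genes summed to 10.12 to 10.30 with N and to 10.30 to 10.33 with K, where every N array lay below the K arrays. In bulk RNA, fewer cells of a type and less RNA per cell cannot be told apart, and the part of these marker differences in any value below was not tested.

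No member of the stress response differed between N and K after adjustment. With limma, 0 of the 39 members had an adjusted p under 0.05, against 31 of 19937 genes, or 0.155%, and the lowest adjusted p among the members was 0.268, for Dnajc3. At an unadjusted P under 0.05 there were 4 members, or 10.3%, against 1702 of all genes, or 8.54%. Dnajb9 was the 1 higher with N, where the share of all genes was 4.64%, and Dnajc3, Sdf2l1 and Sesn2 were the 3 lower with N, where it was 3.89%. The study's rule for a positive gene, a log2FC over 1 in size with an unadjusted P under 0.05, took 0 members, against 98 genes, or 0.492%. Every N array lay above every K array for 0 members (5.78% of all genes) and below every K array for 3 (7.55% of all genes), the same Dnajc3, Sdf2l1 and Sesn2. The share of members with an unadjusted P under 0.05 in either direction thus lay near that of all genes.

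The differences themselves were small. The log2FC of the members ran from -0.55 to 0.60, 18 were above 0 and 21 below, and the median of -0.03 equalled that of all genes. The median size was 0.12 for the members and 0.12 for all genes. The precision can be read from the 95% intervals of the limma fit: for 36 of the 39 members, or 92.3%, the whole interval lay within a log2FC of -1 to 1, as for 94.6% of all genes, and for 20, or 51.3%, within -0.5 to 0.5. The 3 members whose interval reached past 1 in size were Dnajb9, Mthfd2 and Nupr1, so for these 3 a doubling or halving lay inside the interval. A mean above the median of all clusters was reached by 34 of the 39 members, and not by Herpud1, Xbp1, Ern1, Trib3 and Ppp1r15a. Whether dim signal narrowed the differences and intervals of these genes was not tested. The alternative that left out dim clusters covered only the 34.

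**Figure D1:**
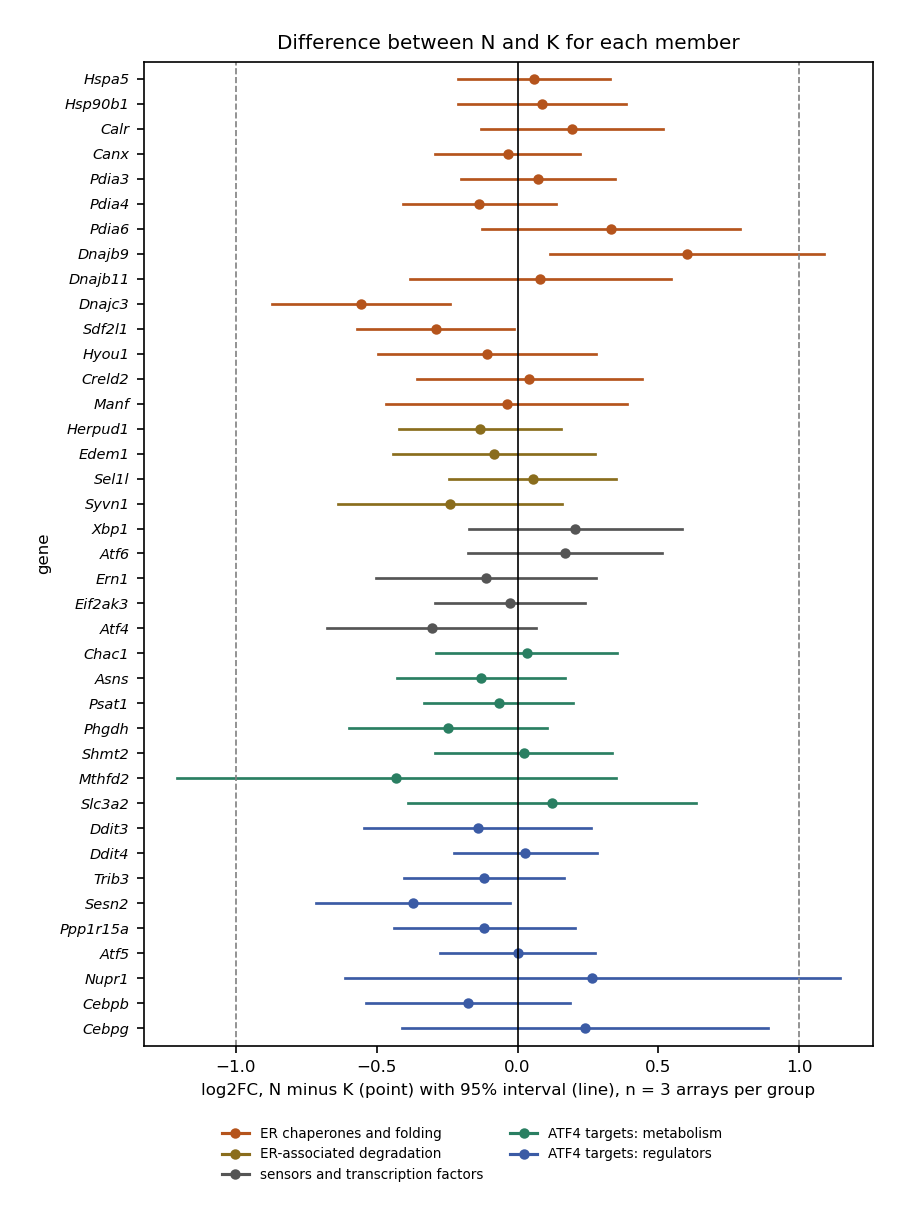
Log2FC of the 39 members, N minus K, with points for the estimate and horizontal lines for the 95% interval of the limma fit over 3 arrays per group, coloured by role. Only the intervals of Dnajb9, Dnajc3, Sdf2l1 and Sesn2 leave out 0, those of Dnajb9, Mthfd2 and Nupr1 cross a dashed line at 1 in size, and no role lies wholly to one side.

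Of the 12 chaperones with a promoter window, 7 carried the letters of the ER stress element. The genes were listed for their role in the response that acts through this element, so their share of matches is no independent finding. The ER stress element, read by ATF6 together with NF-Y, consists of CCAAT, 9 bases of any kind and CCACG, and it was searched on both strands of RefSeq promoter windows (GRCm38.p6, 300 bases, of which 250 lie before the start site). A window was present for 36 of the 39 members; Hyou1, Manf and Atf6 had none. The exact letters stood in 0.137% of the 27025 genes with a window, and in 7 of the 12 chaperones with a window (58.3%), 1 of the 4 degradation genes and 0 of the 16 ATF4 targets. They are shown for these genes with 15 flanking bases, read 5′ to 3′ on the strand of the motif. CCAAT and CCACG are in capitals and coordinates are in GRCm38.p6. Each distance is that of the motif base farthest before the start site, on either strand.
Hspa5 (chr2:34772010-34772058, gene on the plus strand, motif on the same strand as the gene, starting 65 bases before the start site): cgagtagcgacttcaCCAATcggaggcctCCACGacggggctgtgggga
Hsp90b1 (chr10:86705623-86705671, gene on the minus strand, motif on the same strand as the gene, starting 212 bases before the start site): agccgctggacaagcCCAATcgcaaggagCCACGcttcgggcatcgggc
Hsp90b1 (chr10:86705518-86705566, gene on the minus strand, motif on the opposite strand, starting 107 bases before the start site): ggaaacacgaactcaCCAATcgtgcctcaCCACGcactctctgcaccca
Calr (chr8:84847060-84847108, gene on the minus strand, motif on the opposite strand, starting 162 bases before the start site): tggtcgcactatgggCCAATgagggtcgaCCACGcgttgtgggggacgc
Canx (chr11:50325785-50325833, gene on the minus strand, motif on the same strand as the gene, starting 145 bases before the start site): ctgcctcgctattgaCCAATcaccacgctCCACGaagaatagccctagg
Pdia6 (chr12:17266476-17266524, gene on the plus strand, motif on the same strand as the gene, starting 98 bases before the start site): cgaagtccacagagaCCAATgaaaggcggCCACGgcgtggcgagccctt
Creld2 (chr15:88819505-88819553, gene on the plus strand, motif on the opposite strand, starting 126 bases before the start site): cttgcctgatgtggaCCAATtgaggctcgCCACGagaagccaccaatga
Dnajc3 (chr14:118937812-118937860, gene on the plus strand, motif on the same strand as the gene, starting 105 bases before the start site): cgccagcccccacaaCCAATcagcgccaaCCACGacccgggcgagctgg
Syvn1 (chr19:6046517-6046565, gene on the plus strand, motif on the same strand as the gene, starting 44 bases before the start site): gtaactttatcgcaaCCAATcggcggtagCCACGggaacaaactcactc
Hsp90b1 held 2 such sites, on opposite strands. A second form of the element, ATTGG, any base and CCACG, stood in 0.0444% of genes and in 2 members, Herpud1 and Dnajb11, in Dnajb11 after the start site. TGACGTGG, letters bound by ATF6 and XBP1, stood in 0 of the 36 members and in 0.714% of genes. A match is a description of letters and not a measured binding site, and a gene without one may hold other forms or hold it farther away.

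TGATGNAA, the core that ATF4 and C/EBP proteins bind as a pair, stood in 4 of the 16 ATF4 targets, in 5 of the 36 members with a window (13.9%) and in 4.51% of all genes. The targets were listed as genes that ATF4 regulates, so their share of matches is no independent finding. The 4 targets with a match were Asns, Chac1, Nupr1 and Trib3, in Trib3 after the start site. Herpud1 was the only other member, and none of these sites overlapped an ER stress element. Those before the start site are shown with 15 flanking bases and the motif in capitals, with distances taken in the same way as for the ER stress element.
Asns (chr6:7693210-7693247, gene on the minus strand, motif on the same strand as the gene, starting 23 bases before the start site): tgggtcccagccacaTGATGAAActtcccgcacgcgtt
Chac1 (chr2:119351034-119351071, gene on the plus strand, motif on the opposite strand, starting 193 bases before the start site): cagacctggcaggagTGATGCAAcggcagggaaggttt
Nupr1 (chr7:126625558-126625595, gene on the minus strand, motif on the opposite strand, starting 110 bases before the start site): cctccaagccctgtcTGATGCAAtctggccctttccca
Herpud1 (chr8:94386302-94386339, gene on the plus strand, motif on the opposite strand, starting 112 bases before the start site): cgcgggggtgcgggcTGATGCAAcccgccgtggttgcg

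Of the chaperones, the cochaperone Dnajc3 gave the largest difference relative to its error. Dnajc3 encodes P58IPK, an ER cochaperone first described as an inhibitor of eIF2 alpha kinases. Its values were 9.33, 9.49 and 9.35 on N replicates 1 to 3 and 9.82, 9.84 and 10.18 on K replicates 1 to 3. Every N array thus lay below every K array. The means were 9.39 ± 0.09 (SD, n = 3) and 9.94 ± 0.20 (SD, n = 3), a log2FC of -0.55 (SE 0.14) or a level 1.47-fold higher with K. The unadjusted P of the limma fit was 0.00343 and the adjusted p 0.268. In each of the 15 alternative analyses the unadjusted P of Dnajc3 stayed under 0.05, which held for no other member, and the adjusted p stayed above 0.05. Its gene lies at chr14:118937932-118981702.

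Dnajb9 encodes ERdj4, an ER cochaperone that is a target of XBP1, and its difference had the opposite sign. It read 7.84, 8.40 and 8.27 with N and 7.19, 7.91 and 7.61 with K. The groups overlapped, since N replicate 1 lay below K replicate 2. The means of 8.17 ± 0.30 and 7.57 ± 0.36 (SD, n = 3 each) gave a log2FC of 0.60 (SE 0.21), or 1.52-fold higher with N, with a 95% interval of 1.08-fold to 2.13-fold. The unadjusted P was 0.0209 and the adjusted p 0.485. Leaving out 1 array raised the unadjusted P above 0.05 for K replicate 1 (log2FC 0.41), N replicate 2 (0.49) and N replicate 3 (0.55).

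The 250 bases before the start sites of these chaperones are shown together because Dnajc3 and Dnajb9 had the largest differences, of opposite sign, and Hspa5 is the best known chaperone of the response. Capitals mark the ER stress element, which Dnajb9 lacks in this window.
Dnajc3 (chr14:118937682-118937931, gene on the plus strand): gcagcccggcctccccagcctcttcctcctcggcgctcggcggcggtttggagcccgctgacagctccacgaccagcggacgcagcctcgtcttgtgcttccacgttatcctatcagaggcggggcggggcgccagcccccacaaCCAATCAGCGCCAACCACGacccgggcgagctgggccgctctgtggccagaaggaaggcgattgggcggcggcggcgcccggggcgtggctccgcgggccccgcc
Dnajb9 (chr12:44210069-44210318, gene on the minus strand): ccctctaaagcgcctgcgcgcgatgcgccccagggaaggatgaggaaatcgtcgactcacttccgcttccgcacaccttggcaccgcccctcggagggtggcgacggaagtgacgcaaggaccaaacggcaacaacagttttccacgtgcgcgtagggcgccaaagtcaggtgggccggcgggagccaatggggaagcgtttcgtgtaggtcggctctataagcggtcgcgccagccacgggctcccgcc
Hspa5 (chr2:34771840-34772089, gene on the plus strand): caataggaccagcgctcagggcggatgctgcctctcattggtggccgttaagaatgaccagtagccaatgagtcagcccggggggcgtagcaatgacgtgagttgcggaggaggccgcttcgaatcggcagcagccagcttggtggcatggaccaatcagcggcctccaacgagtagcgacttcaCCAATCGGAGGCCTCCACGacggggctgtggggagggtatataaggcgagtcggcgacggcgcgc

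Sdf2l1, a chaperone-associated ER protein, was the third with an unadjusted P under 0.05. It read 7.41, 7.43 and 7.48 with N and 7.69, 7.61 and 7.89 with K, so the groups did not overlap. The log2FC was -0.29 (SE 0.12, adjusted p = 0.569), and the unadjusted P of 0.0434 rose above 0.05 in 5 of the 6 fits that left out an array. With K replicate 2 left out it stayed below.

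Hspa5 encodes BiP, the main ER chaperone and the usual readout of the unfolded protein response. It read 9.90, 10.00 and 9.95 with N and 9.85, 10.02 and 9.81 with K. Both the highest and the lowest array were K arrays. The log2FC was 0.06 (SE 0.12, adjusted p = 0.928), or -0.03 after quantile normalization, and the 95% interval ran from 0.86-fold to 1.26-fold. Hsp90b1, which encodes the ER HSP90 protein GRP94, had a log2FC of 0.09 with values of 11.88, 11.81 and 11.61 with N and 11.69, 11.80 and 11.55 with K.

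The lectin chaperones Calr and Canx, which hold glycoproteins while they fold, had a log2FC of 0.19 and -0.03. Canx was among the most even members, with 12.24 to 12.41 over the N arrays and 12.34 to 12.37 over the K arrays. The disulfide isomerases Pdia3, Pdia4 and Pdia6 had a log2FC of 0.07, -0.14 and 0.33. Pdia6 read 8.93, 8.51 and 8.95 with N and 8.15, 8.84 and 8.41 with K, with an unadjusted P of 0.136 and an adjusted p of 0.718. Its groups overlapped through N replicate 2 and K replicate 2, and without K replicate 2 the log2FC was 0.52 (unadjusted P = 0.0228, adjusted p = 0.275). The cochaperone Dnajb11 had a log2FC of 0.08 and read 8.67 on K replicate 3 and 9.11 to 9.46 on the other arrays. Hyou1, an ER chaperone of the HSP70 superfamily, and the ER stress-inducible secreted proteins Creld2 and Manf had a log2FC of -0.11, 0.04 and -0.04.

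**Figure D2:**
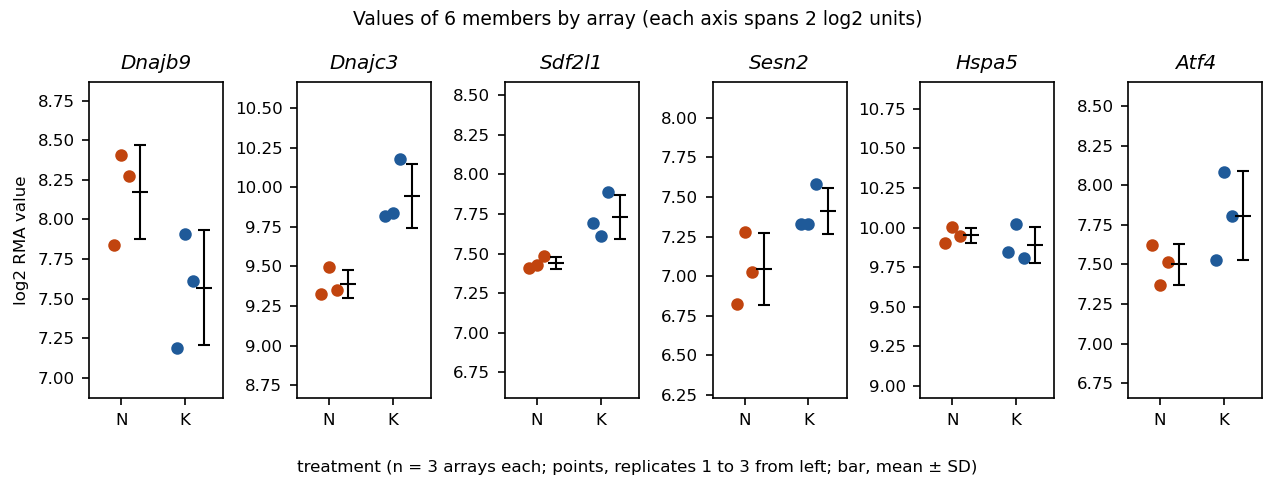
Log2 RMA values of 6 members on the 6 arrays, points for replicates 1 to 3 from left to right and bars for the mean and SD (n = 3 per group), each axis spanning 2 log2 units. The N and K points of Dnajc3, Sdf2l1 and Sesn2 do not overlap, and those of Dnajb9, Hspa5 and Atf4 do.

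As a group, 8 chaperones had a log2FC above 0 and 6 below, with a median of 0.05 that was -0.02 after quantile and -0.0088 after cyclic loess normalization, and 3 (21.4%, against 8.54% of all genes) had an unadjusted P under 0.05, of which 1 was higher and 2 were lower with N. Only 1 was left at that level without K replicate 1, without N replicate 2 or without N replicate 3, where 6.69%, 6.39% and 7.07% of all genes passed. The 7 chaperones with the ER stress element had a median log2FC of 0.06 and ran from -0.55 for Dnajc3 to 0.33 for Pdia6. The 5 with a window but without the element had a median of 0.07. Of the 7 with the element, 5 had a log2FC above 0 and 2 below.

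Of the degradation genes, Herpud1, a membrane protein of the degradation complex, had a log2FC of -0.13. Edem1, which selects misfolded glycoproteins, had a log2FC of -0.08. Sel1l and Syvn1 encode partner proteins of the ubiquitin ligase complex that removes them, and had a log2FC of 0.05 and -0.24. Syvn1 read 7.66, 7.38 and 7.51 with N and 7.45, 7.73 and 8.09 with K. The groups overlapped through K replicate 1, and without that array the log2FC was -0.39 (unadjusted P = 0.0485, adjusted p = 0.744). None of the 4 had an unadjusted P under 0.05 with all arrays, and their median log2FC was -0.11.

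Among the sensors and transcription factors, Atf4 stood farthest from 0. It read 7.62, 7.37 and 7.51 with N and 7.52, 8.09 and 7.81 with K. Only K replicate 1 lay within the range of the N arrays. The log2FC was -0.30 (SE 0.16, unadjusted P = 0.0958, adjusted p = 0.669), and without K replicate 1 it was -0.44 (unadjusted P = 0.0223, adjusted p = 0.632). Xbp1, the factor that IRE1 activates by splicing, had a log2FC of 0.21, with 6.12, 6.13 and 6.56 with N and 6.29, 5.90 and 6.01 with K. Atf6 had a log2FC of 0.17, and the kinases Ern1 and Eif2ak3 had -0.11 and -0.03. The 95% interval of Eif2ak3 ran from 0.82-fold to 1.18-fold.

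The ATF4 targets of metabolism did not move together. Asns, Psat1 and Phgdh, which make asparagine and serine, had a log2FC of -0.13, -0.07 and -0.25. Without N replicate 3, Phgdh had a log2FC of -0.38 (unadjusted P = 0.0359, adjusted p = 0.670). Shmt2 and Mthfd2 are enzymes of mitochondrial one-carbon metabolism, and Shmt2 had a log2FC of 0.02. Mthfd2 read 8.12, 7.60 and 7.56 with N and 8.49, 8.76 and 7.33 with K. K replicate 3 was thus the lowest of all 6 arrays and the other K arrays the highest, so the K values had an SD of 0.76 against 0.31 for N. Its log2FC was -0.43 (SE 0.34, adjusted p = 0.798) with all arrays and -0.86 (unadjusted P = 0.00282, adjusted p = 0.308) without K replicate 3. Chac1, which degrades glutathione, had a log2FC of 0.03, and Slc3a2, the heavy chain of amino acid exchangers, one of 0.12.

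Among the regulators, Sesn2, a sestrin that restrains mTORC1 signalling, had an unadjusted P under 0.05. It read 6.83, 7.28 and 7.03 with N and 7.33, 7.33 and 7.58 with K, so every N array lay below every K array, the closest pair by less than 0.1. The log2FC was -0.37 (SE 0.15, unadjusted P = 0.0384, adjusted p = 0.550), a level 1.29-fold higher with K. Leaving out K replicate 3 (log2FC -0.29), N replicate 1 (-0.26) or N replicate 3 (-0.36) raised the unadjusted P above 0.05. Ddit3, which encodes the proapoptotic factor CHOP, had a log2FC of -0.14, with 7.47, 7.53 and 7.03 with N and 7.28, 7.72 and 7.46 with K. Trib3, a pseudokinase induced with CHOP, had a log2FC of -0.12, and Ppp1r15a, the GADD34 subunit that directs dephosphorylation of eIF2 alpha, one of -0.12. Ddit4, an mTORC1 inhibitor, and the transcription factor Atf5 were the closest to 0 of the regulators, with a log2FC of 0.03 and 0.00.

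Among the other regulators, Nupr1 and Cebpg varied through single arrays. The stress-induced cofactor Nupr1 read 7.78, 8.01 and 8.89 with N and 7.65, 8.80 and 7.43 with K. N replicate 3 and K replicate 2 were the high arrays, and the SD was 0.58 with N and 0.74 with K against a log2FC of 0.27. Cebpg, a dimer partner of ATF4, had a log2FC of 0.24 and read 7.26 on K replicate 3 and 8.07 to 8.54 on the other 5 arrays. Cebpb, another dimer partner, had a log2FC of -0.18. The median log2FC was -0.07 for the 7 genes of metabolism, -0.12 for the 9 regulators and -0.09 for all 16 ATF4 targets. Of the 16 targets, 7 had a log2FC above 0 and 9 below. An unadjusted P under 0.05 was found for 1 of the 16 (6.25%, against 8.54% of all genes). The 4 targets with TGATGNAA had a median of -0.04.

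**Figure D3:**
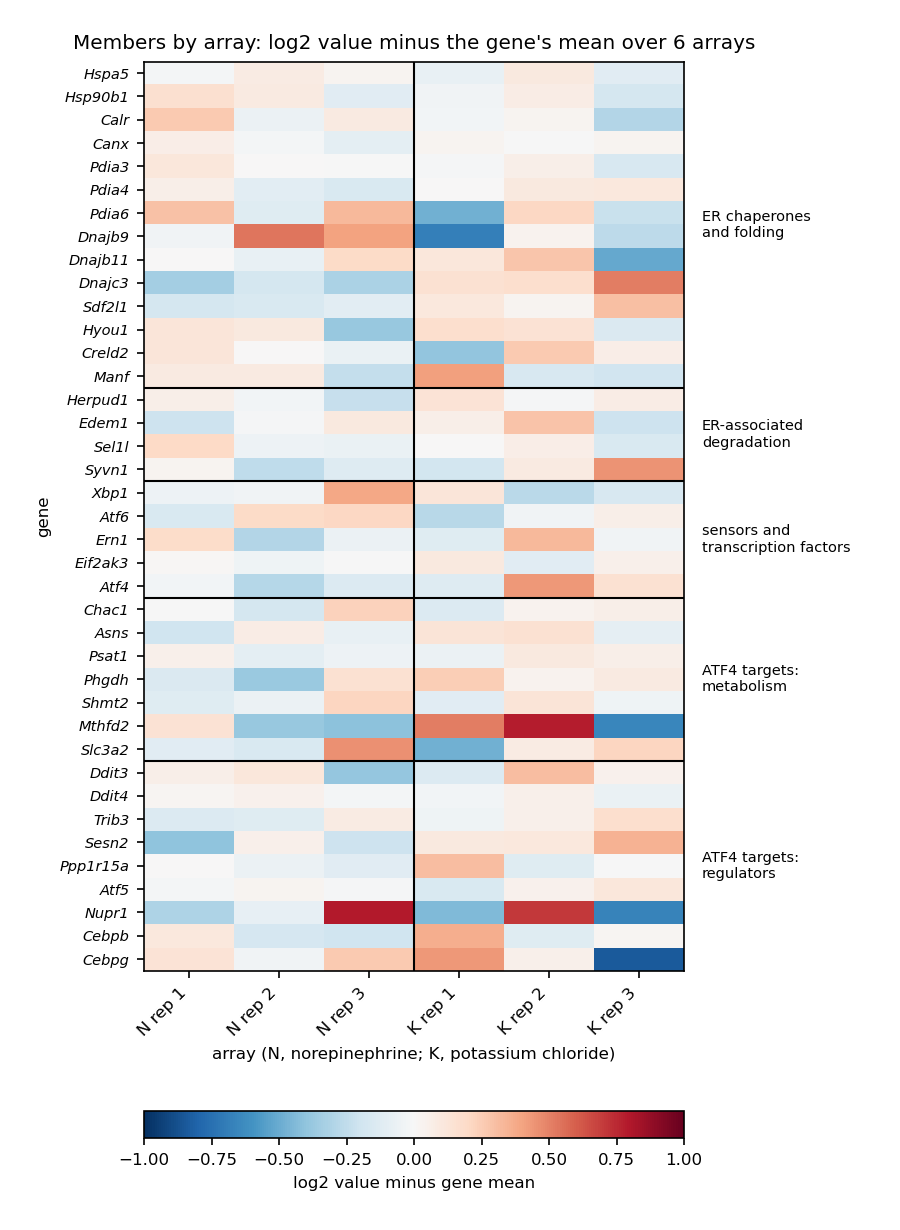
Log2 value of each member on each array minus the mean of that gene over the 6 arrays, members in rows by role and arrays in columns, blue below and red above the gene mean. For no role do the 3 columns of a treatment keep one colour over all rows, and the deepest colours belong to single arrays of Mthfd2, Nupr1 and Cebpg.

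The lowest and the highest array were counted for each member. K replicate 3 was the lowest of the 6 arrays for 11 of the 39 members, among them 5 of the 14 chaperones, and K replicate 2 was the highest for 11. The same was not counted over all genes, so these counts do not tell whether the pattern is particular to the members. Averaged over the 14 chaperones after subtracting the mean of each gene, the log2 values were 0.05, 0.01 and -0.03 with N and -0.05, 0.09 and -0.08 with K. The highest and the lowest array were both K arrays. Over the 16 ATF4 targets they were -0.06, -0.09 and 0.04 with N and 0.03, 0.15 and -0.08 with K, again with K replicate 2 the highest.

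The contrast between both arms of the response asked whether chaperones and ATF4 targets differed in their shift. The chaperone mean minus the ATF4 target mean was 0.11, 0.10 and -0.08 on the N arrays and -0.08, -0.05 and 0.00 on the K arrays. N replicates 1 and 2 lay above the K arrays, and N replicate 3 lay among them. The contrast was 0.09 higher with N, with an SD of 0.11 over the N arrays, 0.04 over the K arrays and 0.08 pooled over both. It was 0.15 without N replicate 3, 0.06 without N replicate 1, 0.06 after quantile and 0.05 after cyclic loess normalization. With 3 arrays a group an exact permutation test cannot give a p under 0.1, and none is given for the groups of members.

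**Figure D4:**
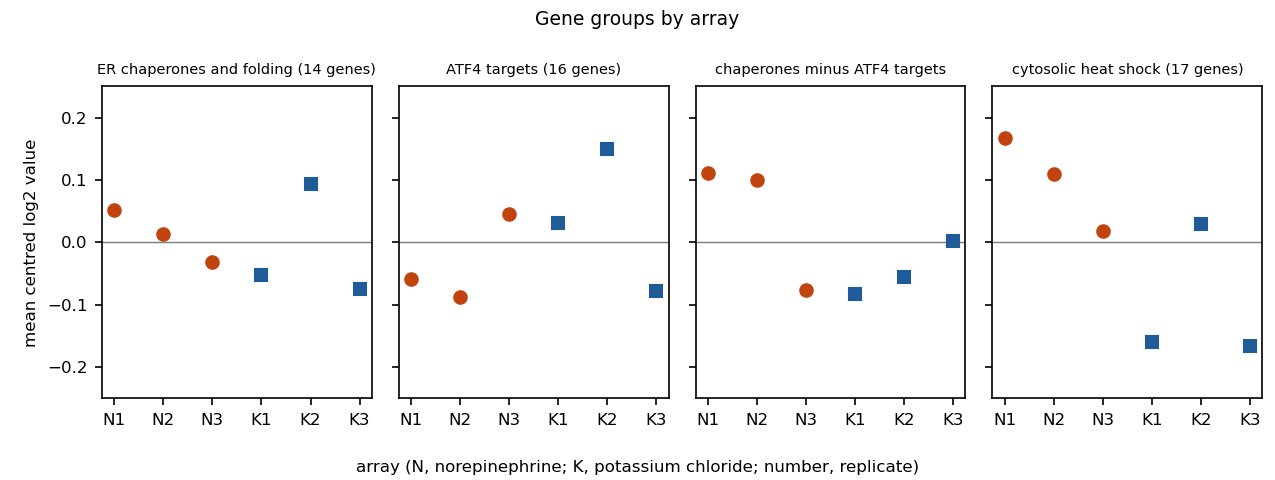
Mean log2 value of a gene group on each array after subtracting the mean of each gene, for 14 ER chaperones, 16 ATF4 targets, their difference and 17 cytosolic heat shock genes, circles for N and squares for K arrays. The N and K points overlap in every panel, and K replicate 2 is the highest array for both chaperones and ATF4 targets.

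Other genes of the same pathways were read from wider lists. Of 48 other genes of ER folding, transport and degradation, 28 had a log2FC above 0, the median was 0.08 (0.02 after quantile normalization), and 2 (4.17%, against 8.54% of all genes) had an unadjusted P under 0.05 in the limma fit. That count was 8 without K replicate 2 (against 14.6% of all genes) and 6 with the replicate number as a block (against 9.4%). It was 0 in an ordinary linear model (against 7.03%) or with all transcript clusters (against 6.14%). The 2 were the prolyl isomerase Fkbp14 with a log2FC of 0.47 (adjusted p = 0.541) and Kdelr3, a receptor that returns ER proteins from the Golgi, with -0.47 (adjusted p = 0.551). Derl1, a degradation channel protein, followed with 0.35 and an unadjusted P of 0.0575.

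Of 36 other ATF4 and integrated stress response genes, the median log2FC was 0.02, or -0.02 after quantile normalization, and 6 (16.7%, against 8.54% of all genes) had an unadjusted P under 0.05, 2 higher and 4 lower with N. That count was 2 without N replicate 1 (against 6.27% of all genes) and 3 in an ordinary linear model (against 7.03%). The smallest P belonged to Vldlr, a lipoprotein receptor, with a log2FC of -0.45 (unadjusted P = 0.0148, adjusted p = 0.435). Slc7a5, the light chain that pairs with the product of the member Slc3a2 in a leucine exchanger, read 10.01, 10.01 and 10.22 with N and 10.24, 10.82 and 10.56 with K, with a log2FC of -0.46 (adjusted p = 0.490). Slc3a2 itself had a log2FC of 0.12 and overlapping groups. Bbc3, the proapoptotic gene for PUMA, had a log2FC of -0.31 (adjusted p = 0.491). The others were Mthfd1l, an enzyme of mitochondrial one-carbon metabolism (-0.29), Slc7a3, a carrier of cationic amino acids (0.54), and Cbs, an enzyme of cysteine synthesis (0.37). The 11 genes listed as eIF2 alpha kinases and phosphatase, which also include the subunits of the exchange factor of eIF2, had a median of -0.04. Of these 11, 0 had an unadjusted P under 0.05 in the limma fit. Among them Eif2ak2, the kinase activated by viral RNA, had the smallest P, with a log2FC of 0.26 (unadjusted P = 0.127, adjusted p = 0.709), and Eif2b1, a subunit of the exchange factor of eIF2, and Ppp1r15b, the constitutive counterpart of Ppp1r15a, had 0.50 and -0.18.

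Chaperones of other compartments gave a comparison. Of 17 genes listed as cytosolic heat shock genes, 13 had a log2FC above 0, with a median of 0.20 (0.15 after quantile normalization). At an unadjusted P under 0.05 there were 3 (17.6%, against 8.54% of all genes), all higher with N. That count was 0 in an ordinary linear model (against 7.03% of all genes) and 1 with N replicate 1 left out (against 6.27%). It was 6 with N replicate 3 left out (against 7.07%) and 6 with the replicate number as a block (against 9.4%). Cryab, a small heat shock protein that astrocytes also express, had a log2FC of 0.74 (adjusted p = 0.369), Hspa4l, an HSP110 protein, one of 0.47 and Hsp90aa1, the inducible cytosolic HSP90, one of 0.32. K replicate 2 lay at 0.03 in the mean of these genes, above N replicate 3 at 0.02, and K replicates 1 and 3 lay at -0.16 and -0.17. Of 10 mitochondrial chaperones and proteases, the median was 0.06 (-0.0069 after quantile normalization). An unadjusted P under 0.05 was found for 2 of the 10, against 8.54% of all genes. That count was 1 in an ordinary linear model (against 7.03%), with all transcript clusters (against 6.14%) and in eBayes with trend and robust (against 8.42%). It stayed 2 with K replicate 2 left out (against 14.6%) and was 1 with any other array left out (against 6.27% to 7.16%). The 2 in the limma fit were the protease Yme1l1 with 0.49 (adjusted p = 0.332) and Clpx, a subunit of the matrix protease ClpXP, with 0.36. The third smallest P there was that of the cochaperonin Hspe1, with a log2FC of 0.24. No gene of these 5 lists had an adjusted p under 0.05, and the difference between their shifts and those of the members was not tested.

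**Figure D5:**
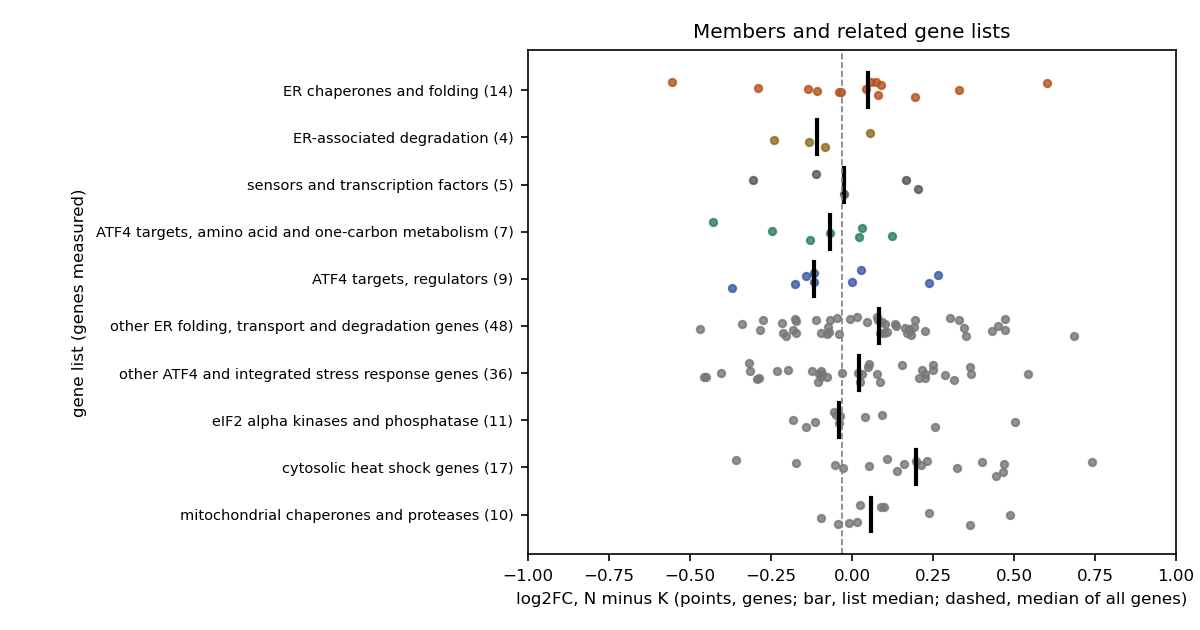
Log2FC of every gene of the member groups and of 5 related lists, points for genes, black bars for the list median and a dashed line for the median of all genes at -0.03. The list medians run from -0.12 for the ATF4 regulators to 0.20 for cytosolic heat shock, and points lie on both sides of 0 in each list.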

How the data were processed

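RNA from neurospheres was hybridised to 6 arrays, 3 with norepinephrine and 3 with potassium chloride. The authors took the scans into Partek Genomics Suite and deposited log2 values from RMA, a method of background correction, normalization between arrays and summary of the probes of a transcript cluster. Versions and settings are not given in the sources used here. Of 34760 clusters, the 21640 that carried a single symbol were used, and the cluster with the highest mean stood for its gene, which left 19937 genes. All value columns matched a sample label, and groups follow those labels. For each gene, N minus K was fitted with limma 3.58.1 in R 4.3.3 (lmFit, eBayes, no covariates, no filter on dim clusters), with 4 residual and 4.59 prior degrees of freedom. P-values were adjusted by the Benjamini-Hochberg method across all genes (threshold 0.05). The fit was tested on simulated data. The members and lists were chosen with earlier results of these data known. Named genes are all members and, from each other list, the 3 with the smallest P and any passing adjustment, with others named only to complete a count. Of the cell type markers, 6 were planned to be given by value, and Vim, Snap25 and Tubb3 were added after their values were seen. Promoter windows are those of RefSeq on GRCm38.p6, where 36 of the 39 members matched by symbol. Alternatives were a replicate block, an ordinary linear model, eBayes with trend and robust, dim clusters left out, 3 other normalizations, averaging a gene's clusters, all transcript clusters, and each array left out. The number of arrays limits the precision. Since separate mice or cultures are not stated, P-values measure only the spread between these arrays, which may be technical. Figures used matplotlib 3.10.9 (Python 3.11.15).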

Additional observations from a re-analysis of the deposited data

How the results depend on the processing

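Under each of the 15 alternatives, 0 members had an adjusted p under 0.05 in limma or in the ordinary linear model and 0 met the rule for a positive gene; the lowest adjusted p among the members ran from 0.173 without K replicate 2 to 0.600 with all transcript clusters. The count of members at an unadjusted P under 0.05, 4 as reported, was 2 with the ordinary linear model (Dnajc3 and Sdf2l1), 2 with all transcript clusters (Dnajb9 and Dnajc3) and 2 to 5 when 1 array was left out: 2 without any 1 of the N arrays and 5 without K replicate 2, where 14.6% of all genes passed that level. Of all genes, 7.03% passed with the ordinary linear model, 6.14% with all transcript clusters and 6.27% to 14.6% when 1 array was left out. With the replicate number as a block the member count was 3 (Dnajb9, Dnajc3 and Sesn2), against 9.4% of all genes. The number of all genes at an adjusted p under 0.05 in limma then went from 31 to 41. The same-numbered arrays correlated at 0.04, 0.04 and 0.12 in their deviations from the group means, the last being the highest of all pairs. Pairs of different numbers ran from -0.14 to 0.11, the latter for N replicate 1 with K replicate 2. These values do not settle whether the numbers pair the arrays, and the main fit did not pair them. Over all genes, the ordinary linear model called 1 gene, and limma called 0 without K replicate 1 (1334 genes at an unadjusted P under 0.05), N replicate 1 (1251) or N replicate 2 (1274). With all transcript clusters 0 of these genes were called and 1225 had an unadjusted P under 0.05. Centring the arrays on the median left 3, and quantile and cyclic loess normalization left 12 each.

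The chaperone median of 0.05 ran from -0.0089 (without K replicate 3) to 0.12 (without K replicate 2) when 1 array was left out, and it was -0.02 with quantile and -0.0088 with cyclic loess normalization. The cause was not tested. The ATF4 target median stayed below 0 under every alternative. Hspa5 had a log2FC of -0.03 with quantile normalization. Of the results for single members, 555 counted as the same. A member with an unadjusted P under 0.05 counted so where it stayed under 0.05, whatever its shift. Any other counted so where it stayed above 0.05 and moved by less than the spread, the SD of the gene pooled over both groups. With 3 arrays a group, leaving out 1 cannot move a log2FC by that much. The block, the other models, leaving out dim clusters and all transcript clusters keep the log2FC as it was. For these fits, the count of 555 thus tells only that the threshold was not crossed. Of the results not counted as the same, 17 lost the threshold, 5 gained it and 3 stayed above 0.05 but moved by more than the spread.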

Other observations

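Pdia4 was the 1 member with more than 1 transcript cluster. The cluster with the lower mean, which enters only the averaged clusters and the fit to all transcript clusters, read 5.48, 6.29 and 5.29 with N and 7.97, 5.50 and 5.74 with K, with a log2FC of -0.72 (SE 0.68) and an unadjusted P of 0.331 in limma. K replicate 1 read more than 1 log2 unit above every other array there, while the cluster used read 8.51 on that array, between 8.35 and 8.60 like the rest. The mean of both clusters had a log2FC of -0.43.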
